A study of Mus musculus with 32 samples.

Results

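The ATF4 amino acid stress program was followed in macrophages that lost the DNA exonuclease gene Trex1. It was taken here as 44 mouse genes, out of 54281 gene identifiers in the count table, and all 44 were among the 15257 genes that passed the filter on low counts. The genes were chosen by name, because Asns, Aars1 and Mthfd2 ranked high in the genotype difference on day 3, where by log2 fold change they stood at rank 290, 673 and 427 of 15257. They comprise 11 regulators, 6 enzymes of serine and one-carbon metabolism, 5 other enzymes of amino acid and glutathione metabolism, 6 amino acid transporters, 14 cytosolic aminoacyl-tRNA synthetases and 2 secreted or surface proteins. Because the day 3 difference selected the program, it is described below without a test.

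ATF4 is a transcription factor of the integrated stress response. Kinases that sense missing amino acids, unfolded proteins, double-stranded RNA or heme deficiency phosphorylate the translation initiation factor eIF2, which lowers protein synthesis as a whole while ATF4 mRNA is translated more. ATF4 then binds, together with C/EBP proteins, to C/EBP-ATF response elements in genes for amino acid synthesis, amino acid import and tRNA charging, and it turns on further regulators such as DDIT3 (CHOP) and TRIB3 that shape or end the response. Growing cells also draw on the same genes for protein synthesis, so the program is active to some degree without stress.

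Bone marrow-derived macrophages (BMDMs) were grown from mice of the genotypes Trex1 FL/FL R26 CreERT2, with loxP sites around both copies of Trex1, and Trex1 WT/FL R26 CreERT2, with 1 floxed and 1 wild type copy. All cells carried the Cre recombinase that is driven from the Rosa26 locus and stays inactive until 4-hydroxytamoxifen (4-OHT) binds it. Each genotype was cultured either without drug or with 4-OHT at 2 µg/ml during 22 h, and RNA was taken on days 1, 2, 3 and 4 after the exposure ended. Each of the 16 groups held 2 libraries, 32 in all, and the labels name no animal, age, batch or replicate number, so that p-values measure the spread between these libraries, which may be technical. WT/FL cells given 4-OHT therefore lose a single allele, and the genotype comparison sets loss of both alleles against loss of 1. It does not set complete loss of the protein against partial loss on every day, as given below. Cells exposed to 4-OHT are called induced in the following.

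The libraries held 35120505 to 63760884 counts, of which the 44 genes took 0.175% to 0.417%. Levels are given as CPM, counts relative to the library total after scaling with TMM factors, which depend on transcript length and are compared only within a gene. Trex1 itself was at 0 counts in both libraries of induced FL/FL cells on days 1, 3 and 4 and at 14 and 9 counts on day 2, against 758 to 3622 counts in induced WT/FL cells, whose CPM lay below that of untreated WT/FL cells on every day. The summed level of 7 macrophage markers was 4073 to 14660 CPM, whereas 3 T cell markers, 3 B cell markers and 2 NK cell markers summed to at most 0.173 CPM in any library, 3 fibroblast markers to at most 1.655 CPM and 5 neutrophil markers to 1.61 to 9.50 CPM. In none of the 16 groups did the pair of libraries agree within counting noise.

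The promoters of the program were read first, for the letters at the core of the element that ATF4 binds. In windows from 250 bases before to 50 bases after the start of the canonical transcript (GENCODE M39, GRCm39), the letters TGATGNAA, the core of the C/EBP-ATF response element, were found on either strand in 836 of 21757 promoters, or 3.84%, and in 11 of the 44 members, or 25.0%. These were 5 of 14 synthetases (Aars1, Cars1, Gars1, Iars1 and Tars1), 2 of 11 regulators (Atf3 and Ddit3), 2 of 5 other enzymes (Chac1 and Pycr1), 1 of 6 transporters (Slc7a11) and Vldlr, but 0 of 6 serine and one-carbon enzymes. The core of the interferon-stimulated response element, GAAANNGAA, was present in 8.78% of all promoters and in 3 members, Eprs1, Ppp1r15a and Vars1. The stretches of 6 members upstream of the start are printed from 5′ to 3′ on the coding strand, with the C/EBP-ATF core, as read on either strand, in capitals: Aars1, with 2 cores, and Ddit3, Chac1 and Atf3, which were higher in induced FL/FL cells, beside Slc7a11, with 2 cores, and Vldlr, which were lower there on day 4.
Aars1, chr8:111760332-111760507, plus strand: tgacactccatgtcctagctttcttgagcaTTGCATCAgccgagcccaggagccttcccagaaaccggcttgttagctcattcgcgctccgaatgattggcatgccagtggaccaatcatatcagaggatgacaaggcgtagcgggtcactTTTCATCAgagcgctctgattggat
Ddit3, chr10:127126331-127126398, plus strand: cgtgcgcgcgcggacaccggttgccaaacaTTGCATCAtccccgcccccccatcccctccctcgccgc
Chac1, chr2:119181500-119181567, plus strand: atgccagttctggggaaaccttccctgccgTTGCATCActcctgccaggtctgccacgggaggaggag
Atf3, chr1:190915603-190915670, minus strand: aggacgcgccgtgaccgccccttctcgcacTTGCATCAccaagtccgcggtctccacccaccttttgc
Slc7a11, chr3:50398072-50398158, minus strand: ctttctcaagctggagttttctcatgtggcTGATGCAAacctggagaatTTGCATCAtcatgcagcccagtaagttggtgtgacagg
Vldlr, chr19:27194190-27194257, plus strand: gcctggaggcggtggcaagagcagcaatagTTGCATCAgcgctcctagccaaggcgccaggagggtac
A core in the window thus stood in members that were higher and in members that were lower after Trex1 loss. A match says only that the letters are there, and other elements or more distant sites were not searched. A member without a match in the window, such as Asns or Trib3, may therefore still carry the element.

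How the program behaved without induction sets the base for the genotype comparisons. In untreated cells of both genotypes the metabolic members fell steeply between day 2 and day 3 of culture, while most regulators did not. Of the 44 members, 33 were called lower on day 3 than on day 2 and 6 higher (edgeR quasi-likelihood test over 8 libraries, Benjamini-Hochberg adjusted p under 0.01), against 23.4% of all tested genes called lower and 24.8% called higher. Their median log2 fold change was -1.14, with a median of 0.037 over all genes. With the fold threshold of the study added, a log2 fold change beyond 1.5, 17 members were lower, all of them in the enzyme and transporter groups, Trib3 or Stc2, beside 4.53% of all genes. Since these are bulk libraries, fewer cells of a type and less RNA per cell cannot be told apart.

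Asns, which makes asparagine from aspartate (chromosome 6, 7671667 to 7728461 in GRCm39), stood at 84.4 and 92.5 CPM in untreated WT/FL cells and at 83.3 and 96.6 CPM in untreated FL/FL cells on day 2. On day 3 the 4 libraries held 10.8, 8.96, 10.0 and 10.4 CPM. All 4 day 3 libraries thus lay far below all 4 of day 2, with a log2 difference of -3.15 (standard error, SE, 0.0753, adjusted p = 4.43e-22). Phgdh, the first enzyme of serine synthesis, went from 63.0 to 71.3 CPM over the day 2 libraries to 3.68 to 5.03 CPM on day 3 (log2 fold change -3.93). Psat1, which follows it in the pathway, fell by 3.79 on the log2 scale, and Psph, which releases serine in the last step, by 1.52. All 6 enzymes of this group and all 5 other enzymes were called lower.

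Among transporters, Slc7a5, the light chain of the large neutral amino acid transporter LAT1, fell from 48.9 to 58.0 CPM on day 2 to 3.05 to 4.503 CPM on day 3 (log2 fold change -3.83). Slc1a4, a carrier of small neutral amino acids, fell by 3.83 as well, Slc7a1, the carrier of cationic amino acids, by 2.64 and Slc1a5, a glutamine carrier, by 1.502. Slc7a11, the cystine importer, was the exception in this group with a rise of 0.82 (adjusted p = 9.93e-05), and Slc3a2, the heavy chain shared by Slc7a5 and Slc7a11, changed by 0.12 (adjusted p = 0.0138) and was not called. All 14 tRNA synthetases were called lower, but by less, from -0.14 for Nars1 to -1.35 for Cars1 with a median of -0.79.

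The regulators went several ways. Atf4 itself fell by 1.07 and Trib3, a pseudokinase induced by ATF4 that restrains it, by 2.52, whereas Atf3, Nupr1, Ppp1r15a and Cebpg were called higher, by 0.13 to 0.56. Ddit3 (0.18, adjusted p = 0.0777), Sesn2 (0.01, 0.893), Ddit4 (0.14, 0.673) and Atf5 (-0.24, 0.0591) were not called, and Eif4ebp1 was called lower (-0.52). In the same interval the summed level of 8 proliferation markers went from 1170 to 1308 CPM over the untreated day 2 libraries to 99.7 to 121 CPM on day 3, with all 8 genes called lower (median log2 fold change -3.82). The part of these markers in the fall of the program was not tested.

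From day 1 to day 2, 14 members were called higher and 18 lower, beside 25.6% and 24% of all genes, and the split followed role: 9 of 11 regulators were higher (median log2 fold change 0.88) and 0 lower, while 5 of 6 transporters and 9 of 14 synthetases were lower. Ddit3 rose by 1.15 between these days, Vldlr by 1.73, and Slc7a11 (-1.08) and Mthfd1l (-1.13) fell. From day 3 to day 4, 21 members were higher and 5 lower, beside 10.7% and 11.8% of all genes. Asns then rose by 0.63 (adjusted p = 5.69e-07), Atf4 by 0.80 and Ppp1r15a, the subunit that directs a phosphatase to eIF2, by 1.07. Cebpg, Nupr1, Sesn2, Wars1 and Vldlr were lower on day 4 than on day 3. The day 4 levels of Asns, Phgdh and Slc7a5 stayed below those of day 2 in each untreated library.

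**Figure D1:**
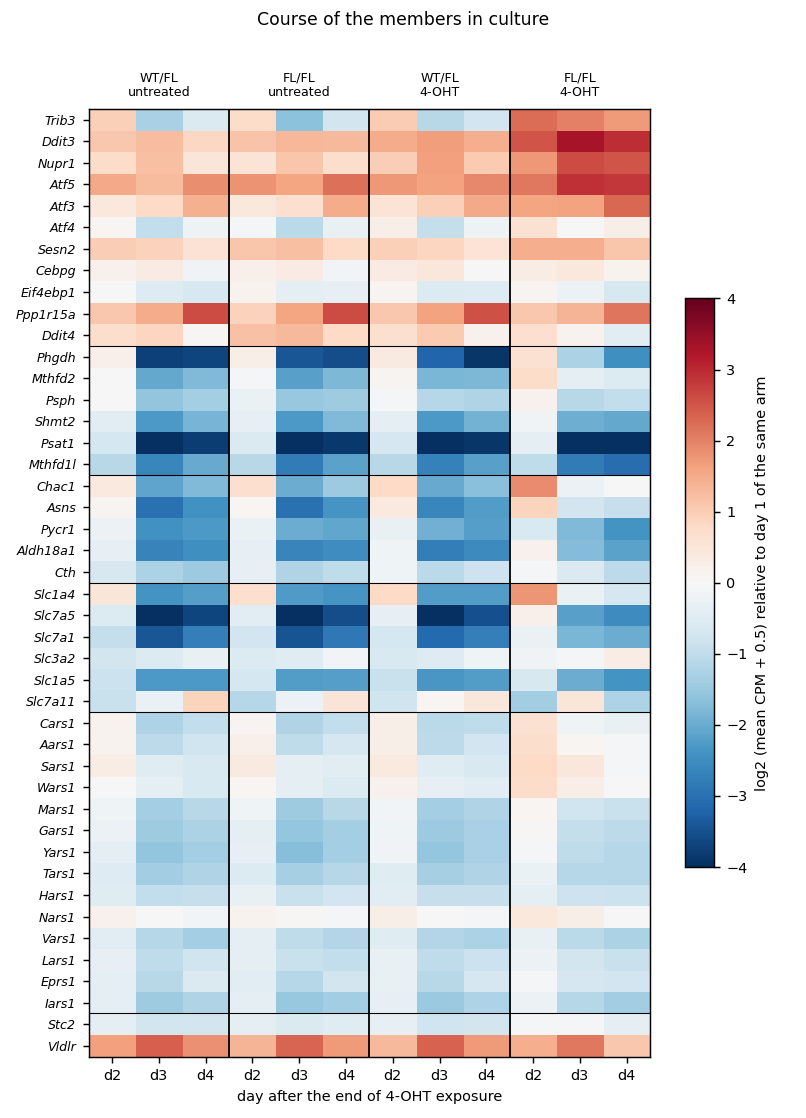
Course of the 44 members in the 4 arms, as log2 of the mean CPM of 2 libraries plus 0.5, relative to day 1 of the same arm (rows: members by role, with lines between roles; columns: days 2 to 4 in each arm; colour bar in log2 units). Most enzymes and transporters are blue on days 3 and 4 in all 4 arms, with exceptions such as Slc7a11 and Slc3a2, Phgdh, Psat1 and Slc7a5 among the deepest. Ddit3 and Atf5 are red in induced FL/FL cells on days 3 and 4. Red is not limited to that arm. In untreated cells Atf5 rose by 1.695, Vldlr by 1.73 and Ddit3 by 1.15 on the log2 scale from day 1 to day 2.

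On day 1 after the exposure the induced genotypes could not be told apart in the program, although Trex1 mRNA was already at 0 counts in FL/FL cells. Loss of the mRNA is not loss of the protein. By Western blot the study still found much TREX1 protein on day 2, almost none on day 3 and none on day 4. The edgeR test called 0 of 44 members higher and 0 lower, 0 members had an unadjusted p under 0.05, and DESeq2 called 0. Over all genes 0.00655% were called higher and 0.0131% lower. Asns stood at 80.7 and 79.8 CPM in induced WT/FL cells and at 76.2 and 83.6 CPM in induced FL/FL cells, and Aars1, the alanyl-tRNA synthetase, at 191 and 200.3 against 191 and 192 CPM. The values of the genotypes overlapped or lay next to each other. The median log2 fold change of the members was -0.02, and that of 8 interferon-stimulated genes was 0.52, of which edgeR called 0 while 4 had an unadjusted p under 0.05.

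On day 2, when the metabolic members were still high in every arm, 17 of 44 members were higher in induced FL/FL than in induced WT/FL cells and 0 were lower (edgeR, adjusted p under 0.01). Over all genes 5.69% were called higher and 2.48% lower, and the median log2 fold change was 0.25 for the members and -0.01 for all genes. The higher members were 6 of 11 regulators, 2 of 6 serine and one-carbon enzymes, 3 of 5 other enzymes, 1 of 6 transporters and 5 of 14 synthetases. No member passed the fold threshold of the study, which 0.498% of all genes did in the higher and 0.0852% in the lower direction. Without replicate 1 of the induced WT/FL cells 11 members were called (10 higher, 1 lower), and without replicate 2 of the induced FL/FL cells 11 were (all higher).

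Ddit3, the transcription factor CHOP that promotes cell death under lasting stress, showed the largest difference on day 2. It stood at 20.4 and 19.5 CPM in induced WT/FL cells and at 44.5 and 48.1 CPM in induced FL/FL cells, whose values were the highest of all 8 libraries of that day. Their log2 difference was 1.22 (SE 0.119, adjusted p = 2.94e-08). In the annotation 64.1% of the exon bases of Ddit3 (chromosome 10, 127124268 to 127132163) lie opposite exons of Mars1, another member, and the sources used here do not say whether reads were assigned by strand, so that reads of the 2 genes cannot be told apart here. Mars1 differed by 0.20 (adjusted p = 0.046) and was not called.

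Atf3, a stress-induced repressor of the same family as ATF4, was at 116 and 115 CPM in induced WT/FL cells and at 227 and 226 CPM in induced FL/FL cells. The libraries of a genotype were nearly level and the genotypes well apart, by 0.97 on the log2 scale (SE 0.0665, adjusted p = 1e-10). Nupr1, a small nuclear protein of the stress response, held 26.1 and 28.45 CPM against 41.7 and 49.2 CPM, which was higher by 0.74. Trib3, here and later named after its values were seen, as were Slc7a5, Atf4 and Atf5, stood at 13.2 and 19.1 CPM against 32.2 and 34.4 CPM, higher by 1.04 (adjusted p = 0.000637). Atf4 mRNA was higher by 0.42 and Sesn2, a leucine sensor that restrains mTORC1, by 0.37. Atf5 (0.47, adjusted p = 0.0435), Ppp1r15a (0.14), Ddit4 (0.08), Eif4ebp1 (0.05) and Cebpg (0.01) were not called.

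Mthfd2, a mitochondrial folate enzyme of the one-carbon pathway (chromosome 6, 83282673 to 83302890), was at 99.97 and 109.7 CPM in induced WT/FL cells and at 159 and 166 CPM in induced FL/FL cells on day 2. Both FL/FL values exceeded both WT/FL values, and the log2 fold change was 0.63 (adjusted p = 8.75e-06). Shmt2, which splits serine to glycine in mitochondria, stood at 73.0 and 82.9 CPM against 92.3 and 98.1 CPM and was higher by 0.29 (adjusted p = 0.00582). Phgdh (0.24, adjusted p = 0.299), Psat1 (0.23), Psph (0.18) and Mthfd1l (0.04) did not pass the threshold. Asns held 101 and 109 CPM against 143 and 157 CPM, higher by 0.51 (SE 0.0912, adjusted p = 0.000207; 0.49, adjusted p = 0.0189, once the difference between untreated genotypes was subtracted), and Aldh18a1, the first enzyme of proline synthesis, held 51.01 and 55.25 against 66.3 and 66.5 CPM, higher by 0.32 (adjusted p = 0.00355). All FL/FL values of these genes lay above the WT/FL values. Chac1, which degrades glutathione, stood at 5.55 and 5.97 CPM against 11.7 and 12.4 CPM and was higher by 1.06 (adjusted p = 0.00927), a call that was lost without any 1 of the 4 libraries. Shmt2 and Aldh18a1 lost their calls without replicate 1 of the induced WT/FL cells (0.20 and 0.26) and without either library of the induced FL/FL cells.

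Among the transporters Slc3a2 was called, at 196 and 199.7 CPM in induced WT/FL and 266 and 282 CPM in induced FL/FL cells, higher by 0.47 (adjusted p = 6.29e-07). Slc7a1 held 69.5 and 78.1 against 97.5 and 94.5 CPM (0.38, adjusted p = 0.0121) and was not called. Neither were Slc1a4 (0.68, 0.0537), Slc7a5 (0.45, 0.0218) and Slc1a5 (0.18, 0.111). Slc7a11 differed by -0.60 (adjusted p = 0.0953), with 5.90 and 9.63 CPM against 4.75 and 5.58 CPM, so its direction was opposite to that of the other transporters but its libraries spread widely. Of the synthetases Wars1 (log2 fold change 0.55), Aars1 (0.42), Cars1 (0.39), Sars1 (0.35) and Tars1 (0.27) were called. Wars1, the tryptophanyl-tRNA synthetase, which interferon also induces, stood at 74.7 and 79.9 CPM against 114 and 113 CPM. Aars1 (chromosome 8, 111754391 to 111784296) was at 227 and 234 CPM against 299 and 319 CPM (adjusted p = 2.37e-06). The call of Sars1 was lost without replicate 1 of the induced WT/FL cells (0.28) or replicate 2 of the induced FL/FL cells (0.26). The other 9 synthetases differed by 0.02 to 0.20 in the same direction and were not called. Vldlr (-0.16, adjusted p = 0.676), at 7.12 and 5.04 against 5.03 and 5.83 CPM, and Stc2, at 12 and 10 against 11 and 3 counts, were not called either. Part of the exon bases of some called members also lie in exons of other genes, 21.8% for Nupr1 (opposite Gm39087), 17.7% for Shmt2 (opposite Ndufa4l2), 17.6% for Aldh18a1 (opposite Gm58925), 15.9% for Slc3a2 (opposite Snhg1) and 12.1% for Aars1 (Exosc6, same strand).

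**Figure D2:**
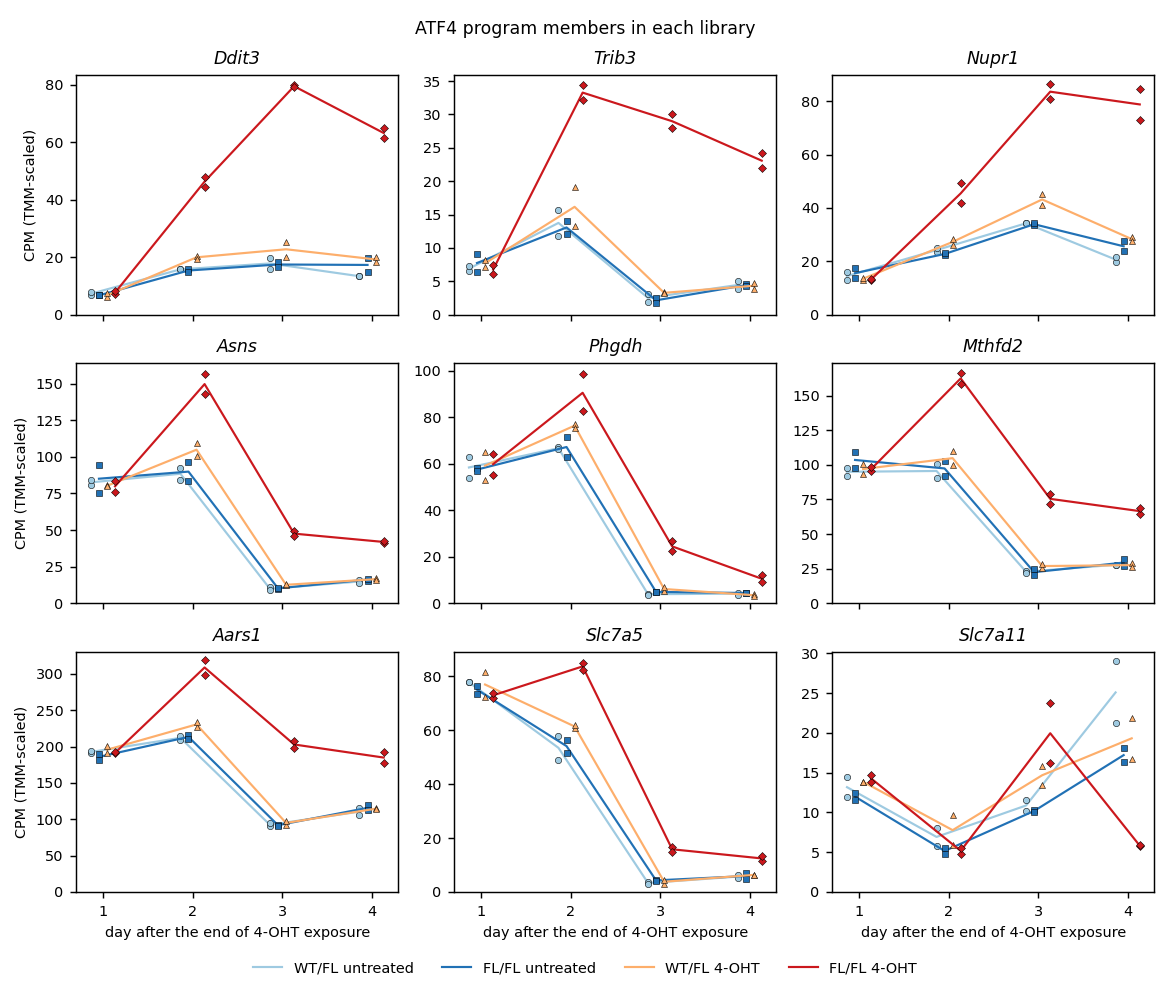
CPM (TMM-scaled) of 9 members in each of the 32 libraries by day, with symbols for libraries, lines for the means of 2 libraries and 1 colour for each combination of genotype and treatment. Asns, Phgdh, Mthfd2 and Slc7a5 drop between days 2 and 3 in all arms and lie higher in induced FL/FL cells on days 3 and 4, Ddit3 reaches 79.1 and 79.9 CPM there on day 3, and Slc7a11 is lowest there on day 4.

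The day 3 values selected the program and are given as a description. In this contrast 10.5% of all genes were higher by more than 0.5 on the log2 scale and 13.7% lower. The median over the members was 0.58, with 39 of 44 above 0 and 5 below. Over all genes the median was -0.007, and 48% lay above 0. Ddit3 stood at 79.9 and 79.1 CPM in induced FL/FL cells against 20.1 and 25.5 CPM in induced WT/FL cells, and Trib3 at 30.1 and 27.9 against 3.35 and 3.19 CPM. Asns was at 49.1 and 46.0 against 12.4 and 12.9 CPM, Aars1 at 207 and 199 against 91.8 and 98.1 CPM and Mthfd2 at 71.6 and 79.3 against 25.7 and 28.1 CPM. For these last 3 genes the induced FL/FL cells thus lay between their own level of day 2 and that of induced WT/FL cells on day 3. The 5 members below 0 were Ddit4 (-0.96), Vldlr (-0.57), Mthfd1l (-0.16), Ppp1r15a (-0.11) and Psph (-0.04). The libraries of Slc7a11 gave 16.2 and 23.7 CPM in FL/FL and 13.5 and 15.9 CPM in WT/FL cells.

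On day 4, 21 members were called higher and 3 lower in induced FL/FL cells (edgeR, adjusted p under 0.01), beside 9.84% of all genes called higher and 11.7% called lower. The median log2 fold change of the members was 0.26 against -0.04 for all genes. The higher members were 7 of 11 regulators, 2 of 6 serine and one-carbon enzymes, 3 of 5 other enzymes, 4 of 6 transporters and 5 of 14 synthetases, and the lower ones were Mthfd1l, Slc7a11 and Vldlr. Past the fold threshold of the study were Trib3, Chac1, Slc1a4, Ddit3 and Phgdh in the higher direction, which 1.65% of all genes reached, and Slc7a11 in the lower, which 1.32% reached.

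Among the regulators Ddit3 held 18.3 and 20.2 CPM in induced WT/FL cells and 61.7 and 64.8 CPM in induced FL/FL cells on day 4, higher by 1.72 on the log2 scale (SE 0.120, adjusted p = 8.2e-12). Mars1, which overlaps it, was higher by 0.31 (adjusted p = 0.000618). Nupr1 stood at 29.0 and 27.6 CPM against 73.0 and 84.6 CPM (1.48, adjusted p = 1.66e-11), and Atf3 at 229 and 218 against 371 and 369 CPM (0.73, adjusted p = 1.32e-09). For each of these 3 genes both induced FL/FL libraries lay above all 6 other libraries of that day. Trib3 held 4.81 and 3.85 against 22.0 and 24.2 CPM (2.41, adjusted p = 7.84e-09), Atf5 was higher by 1.01, Atf4 by 0.49 and Sesn2 by 0.43. Cebpg (0.18, adjusted p = 0.0229), Ppp1r15a (-0.28, 0.0258), Ddit4 (-0.69, 0.196) and Eif4ebp1 (-0.07, 0.488) were not called.

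The serine and one-carbon enzymes parted on day 4. Phgdh was at 3.98 and 3.01 CPM in induced WT/FL cells and at 12.0 and 9.08 CPM in induced FL/FL cells (log2 fold change 1.59, SE 0.177, adjusted p = 4.39e-07), and Mthfd2 at 29.1 and 26.0 against 64.2 and 69.0 CPM (1.27, adjusted p = 5.21e-11). Mthfd1l, which releases formate from the mitochondrial folate pathway, went the other way with 12.7 and 10.1 against 5.26 and 6.14 CPM (-1.01, adjusted p = 3.69e-07). For these 3 enzymes the libraries of the 2 genotypes did not overlap, which adds no support, since they were picked for a small p. Psat1 (-0.56, adjusted p = 0.017), Shmt2 (-0.09, 0.398) and Psph (0.19, 0.332) were not called, so that the first enzyme of serine synthesis was higher while no difference was called for the next 2 steps. Of the 31-base words in annotated Phgdh transcripts 39.8% also occur in transcripts of other genes, foremost the predicted gene Gm7901, which itself held 0 to 5 counts per library.

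Asns stood at 17.2 and 15.7 CPM against 40.9 and 42.9 CPM on day 4 (log2 fold change 1.34, SE 0.100, adjusted p = 6.63e-11), well above the spread of the libraries. Chac1 was at 0.658 and 0.605 CPM (39 and 28 counts) against 2.82 and 2.88 CPM (102 and 95 counts), higher by 2.17 (adjusted p = 8.2e-06). Once the difference between untreated genotypes was subtracted, Chac1 was higher by 1.82 and was not called (edgeR, adjusted p = 0.0104). Aldh18a1, at 10.2 and 9.60 against 12.1 and 13.98 CPM, was higher by 0.39 (adjusted p = 0.000802), a call that was lost with untreated FL/FL cells as the control (0.29), without replicate 2 of induced WT/FL cells (0.35) and without replicate 2 of induced FL/FL cells (0.28). Pycr1, the last enzyme of proline synthesis, held 0 and 4 counts against 2 and 5, and Cth, which makes cysteine from cystathionine, 22 and 1 against 3 and 6 counts, so that no difference was detectable for either at this depth.

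Among transporters, Slc7a5 held 6.45 and 6.204 CPM in induced WT/FL cells and 11.6 and 13.3 CPM in induced FL/FL cells on day 4 (log2 fold change 0.97, adjusted p = 3.96e-05), and Slc7a1 17.6 and 17.7 against 27.2 and 29.75 CPM (0.69). Slc1a4 was at 0.506 and 0.800 CPM (30 and 37 counts) against 2.19 and 2.24 CPM (79 and 74 counts), higher by 1.78 (adjusted p = 2.57e-05). Slc3a2 held 266 and 263 against 369 and 373 CPM (0.49, adjusted p = 8.97e-08). Slc7a11 stood at 21.9 and 16.75 CPM against 5.76 and 5.87 CPM, a difference of -1.73 (SE 0.220, adjusted p = 2.28e-06). In untreated cells of that day Slc7a11 was at 29.0 and 21.2 CPM (WT/FL) and at 16.3 and 18.1 CPM (FL/FL), so both induced FL/FL libraries were the lowest of the 8. The cystine importer and its heavy chain Slc3a2 thus moved in opposite directions. Slc1a5 (-0.21, adjusted p = 0.0429) was not called.

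The synthetases moved by less. Cars1 was higher by 0.70, Aars1 by 0.69, Sars1 by 0.50, Wars1 by 0.44 and Mars1 by 0.31, while the other 9 lay between -0.24 (Iars1, adjusted p = 0.0103) and 0.21 (Gars1) and were not called. Aars1 held 115 and 114 CPM against 178 and 192 CPM (adjusted p = 1.57e-10), and Cars1, the cysteinyl-tRNA synthetase, 35.5 and 33.8 against 56.9 and 55.9 CPM (adjusted p = 1.13e-08). Sars1, the seryl-tRNA synthetase, held 83.8 and 86.2 against 119 and 122 CPM, and Wars1 48.6 and 50.9 against 66.2 and 68.5 CPM. In these 4 genes the genotypes did not overlap, which adds no support, since genes were picked for a small p here or on day 2. Of the last group, Vldlr, a lipoprotein receptor, was called lower at -1.01 on the log2 scale (adjusted p = 7.19e-05), at 8.49 and 7.76 against 4.37 and 3.69 CPM. Stc2, a secreted glycoprotein, held 4 and 1 against 3 and 0 counts, and its difference was not detectable at this depth.

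**Figure D3:**
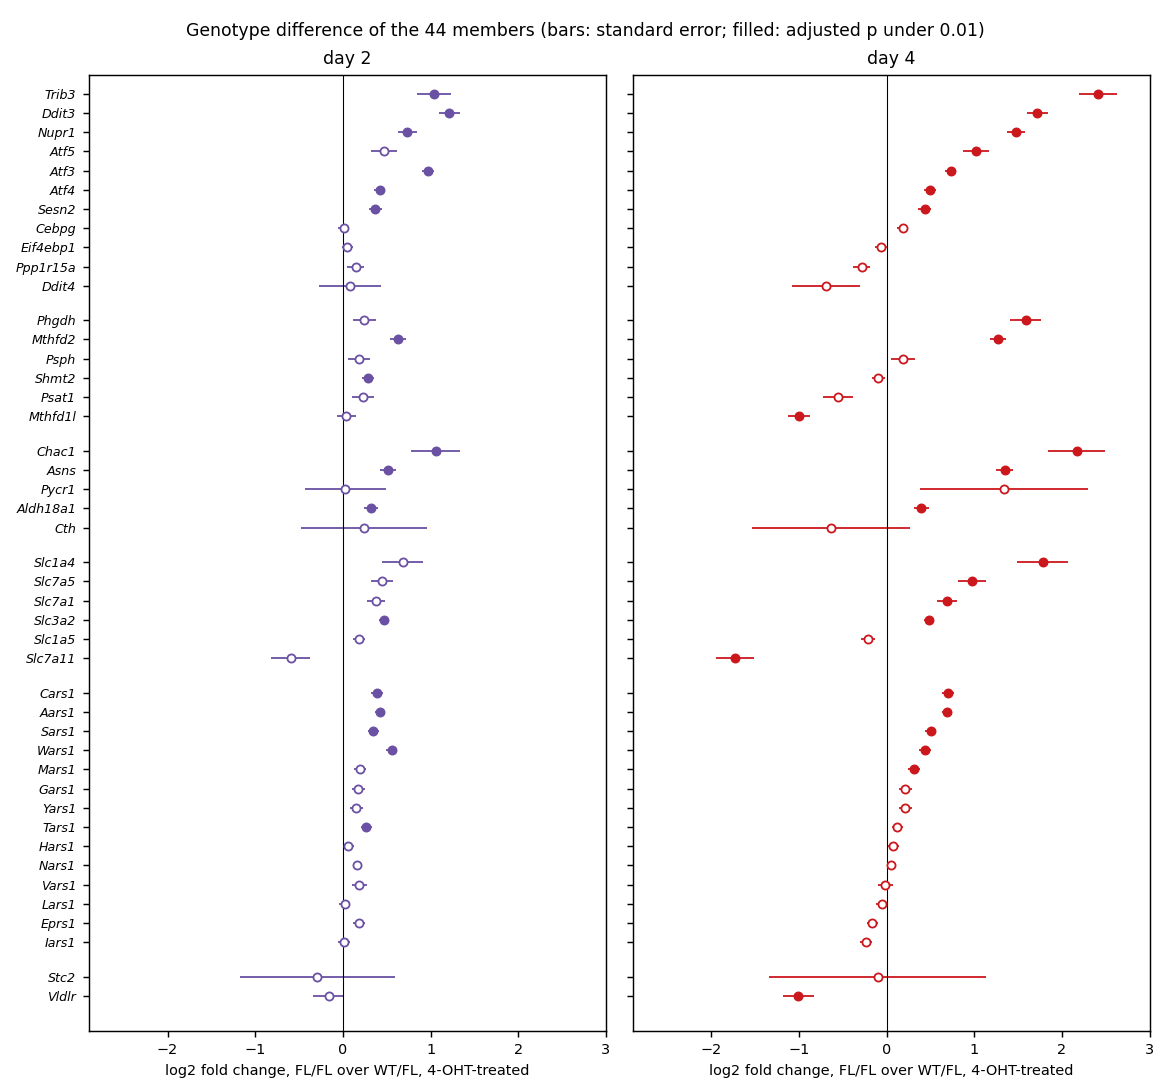
Log2 fold change of induced FL/FL over induced WT/FL cells for the 44 members on day 2 (left) and day 4 (right), grouped by role and sorted by the day 4 value within a role; bars are standard errors, filled points have an edgeR adjusted p under 0.01. Filled points lie right of 0 for 17 members on day 2 and 21 on day 4, Slc7a11, Mthfd1l and Vldlr are filled left of 0 on day 4, and Trib3 reaches 2.41 on that day.

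Whether the genotype difference itself changed between the 2 days was tested as the difference of differences. It grew for 5 members (Phgdh, Trib3, Asns, Nupr1 and Mthfd2) and shifted downward for 1 (Mthfd1l), beside 1.68% of all genes shifted upward and 2.46% downward. Asns changed by 0.83 (SE 0.135, adjusted p = 0.00017) and Phgdh by 1.34 (adjusted p = 0.000466). Both genes fell from day 2 to day 4 in induced cells of both genotypes, by a larger factor in WT/FL cells. For Ddit3 (1.22 on day 2, 1.72 on day 4) and Slc7a11 (-0.60, -1.73) the change of the difference did not pass the threshold. Without replicate 1 of induced FL/FL cells on day 2 or replicate 2 on day 4, 3 members were called in place of 6.

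Untreated cells served as a second set of controls. Within the FL/FL genotype, induced against untreated cells showed 25 members higher and 0 lower on day 2, beside 7.49% and 3.59% of all genes, and 20 higher and 5 lower on day 4, beside 10.2% and 11.2%. Ddit3 was higher by 1.59 on day 2 and by 1.88 on day 4, Asns by 0.74 and 1.37, and Slc7a11 differed by 0.00 and -1.56. Besides Slc7a11, Mthfd1l and Vldlr, the lower members on day 4 were Ppp1r15a (-0.36) and Eif4ebp1 (-0.25), a repressor of cap-dependent translation. These comparisons share the induced FL/FL libraries with those between genotypes. The day 2 count was 16 without replicate 2 of untreated FL/FL cells and 15 without replicate 2 of induced FL/FL cells.

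Induced against untreated WT/FL cells, a contrast that also holds the loss of 1 Trex1 allele, were compared over days 1, 2 and 4. Day 3, whose induced WT/FL libraries entered the selection of the program, was left out. Called were 0 members higher and 0 lower in edgeR and 0 in DESeq2, with 5 at an unadjusted p under 0.05, among them Ddit3 (0.25), Nupr1 (0.18) and Asns (0.12). Over all genes 0.0197% were called higher and 0.157% lower. The untreated genotypes, over 4 days, also differed in 0 members by either tool (6 at an unadjusted p under 0.05, all 6 by at most 0.30), beside 0.0131% of all genes higher and 0.00655% lower. When the difference between untreated genotypes was subtracted from that between induced ones, 9 members were higher on day 2 and 0 lower, beside 3.55% and 0.492% of all genes, and 18 were higher and 3 lower on day 4, beside 5.15% and 5.24%. The 9 on day 2 were Atf3, Ddit3, Nupr1, Sesn2, Mthfd2, Slc3a2, Aars1, Sars1 and Wars1. The other 8 members called on day 2 did not pass after this subtraction, namely Trib3 (1.11, adjusted p = 0.0155), Chac1 (0.87, 0.255), Asns (0.49, 0.0189), Cars1 (0.37, 0.0181), Atf4 (0.36, 0.0172), Aldh18a1 (0.22, 0.31), Shmt2 (0.22, 0.278) and Tars1 (0.20, 0.239). Of the members called higher on day 4, Chac1 (1.82, adjusted p = 0.0104), Aldh18a1 (0.28, 0.133) and Mars1 (0.24, 0.0988) did not pass after it.

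**Figure D4:**
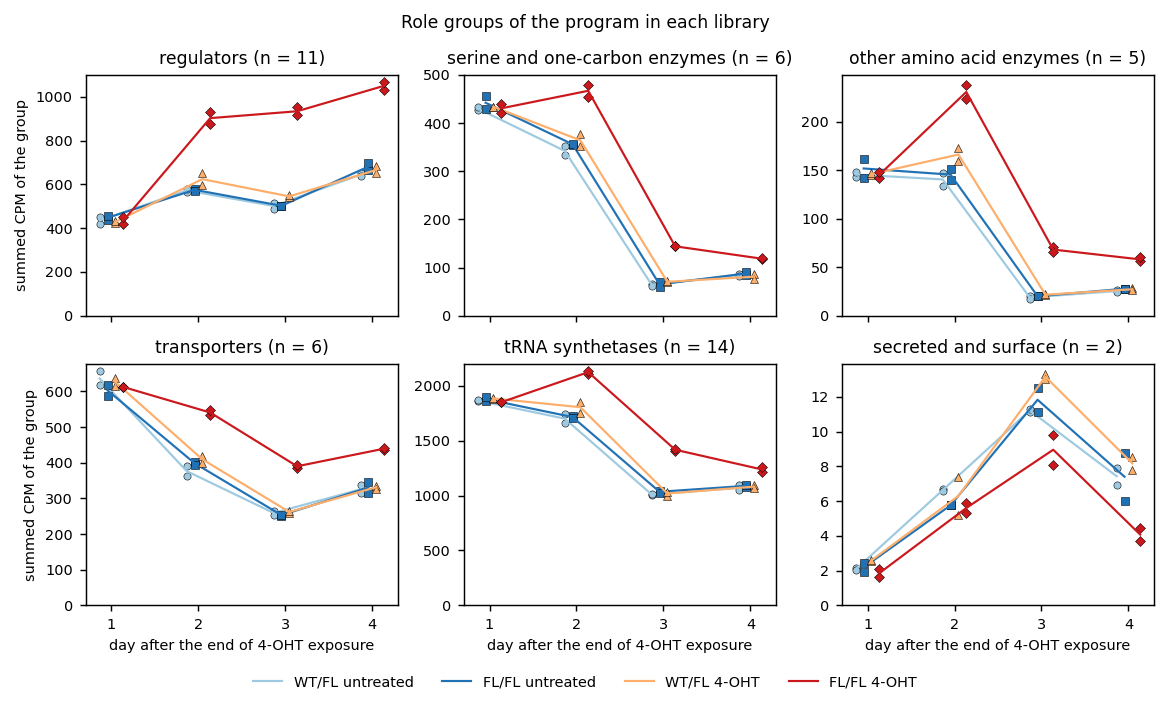
Summed CPM of each role group in the 32 libraries by day (symbols: libraries, lines: means of 2 libraries, colours: genotype and treatment; n is the number of genes). Sums are governed by the members with most counts; the regulators sum to more in induced FL/FL cells than in the other arms from day 2 on, the enzyme, transporter and synthetase groups fall in every arm by day 3, and the last group, mostly Vldlr, is lowest in induced FL/FL cells on days 3 and 4.

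Interferon-stimulated genes and proliferation markers also moved in these comparisons. For comparison, 5.69% of all genes were called higher and 2.48% lower on day 2, and 9.84% and 11.7% on day 4. All 8 interferon-stimulated genes were higher in induced FL/FL cells on day 2 (median log2 fold change 1.76) and on day 4 (2.92), with summed levels of 6603 and 6768 CPM against 1924 and 1618 CPM on day 2 and of 7428 and 7153 against 969.5 and 1163 CPM on day 4. Usp18 and Ifit1, the genes with the smallest p on day 4, were higher by 2.72 and 2.71. The same 8 interferon-stimulated genes were also called higher on day 2 than on day 1 in untreated cells, from 6.12-fold (Cxcl10) to 29.9-fold (Ifit3). The 8 proliferation markers summed to 944 and 874 against 1169 and 1133 CPM on day 2, when 2 of 8 were lower, and to 41.7 and 38.2 against 166 and 159 CPM on day 4, when all 8 were lower, Ccna2 with -3.58 and Mki67 with -2.83. Their part in the differences of the program was not tested.

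Genes that stand upstream of ATF4 or next to the members were counted in the same way. For comparison, 5.69% of all genes were called higher and 2.48% lower on day 2, and 9.84% and 11.7% on day 4. Of 8 eIF2 kinases and regulators 1 was higher and 1 lower on day 2, and 3 were higher and 1 lower on day 4. Eif2ak2, the kinase PKR that double-stranded RNA activates and interferon induces, stood at 110 and 125 CPM in induced WT/FL cells and at 198.5 and 214 CPM in induced FL/FL cells on day 4 (log2 fold change 0.82, adjusted p = 5.8e-09). Eif2ak3, the kinase PERK of the endoplasmic reticulum, was lower, with 37.4 and 38.3 against 20.7 and 20.7 CPM (-0.87, adjusted p = 5.31e-09). These are mRNA levels and give no measure of kinase activity. Of 16 other genes known as ATF4 targets 14 were tested, of which 1 was higher on day 2 (Pck2, by 0.27) and 2 were higher and 1 lower on day 4, with a median log2 fold change of 0.04 on day 4. On that day Pck2, which makes phosphoenolpyruvate in mitochondria, was higher by 0.48 (SE 0.069, edgeR adjusted p = 3.53e-06). Aldh1l2, a mitochondrial folate enzyme named after its value was seen, was higher by 2.11 with a wide SE of 0.58 (adjusted p = 0.0063). Slc6a9, a glycine transporter, differed by -1.59 (SE 0.31, adjusted p = 0.00022). These day 4 calls were lost once the difference between untreated genotypes was subtracted. The edgeR adjusted p was then 0.0966 for Aldh1l2, 0.0123 for Pck2 and 0.075 for Slc6a9. With untreated FL/FL cells as the control on day 4, Aldh1l2 (0.84, adjusted p = 0.256) and Pck2 (0.22, 0.0137) were not called. Against untreated FL/FL cells on day 2, Pck2 was not called (0.23, adjusted p = 0.0155). Gpt2, named after its value was seen, was called higher there (0.53, adjusted p = 0.000709).

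Of the 6 cytosolic synthetases outside the program, 2 were higher and 0 lower on day 2 (Rars1 and Kars1, named after their values were seen). For comparison, 5.69% of all genes were called higher and 2.48% lower on day 2, and 9.84% and 11.7% on day 4. On day 4 Kars1 was higher by 0.26. Once the difference between untreated genotypes was subtracted, Rars1 (0.26, edgeR adjusted p = 0.104) and Kars1 (0.24, 0.0376) were not called on day 2. Kars1 was not called on day 4 either (0.14, 0.205). Of 17 mitochondrial synthetases 0 were called on day 2 (0 with an unadjusted p under 0.05 in edgeR), and on day 4 0 were higher and 2 lower, Iars2 with -0.33 and Mars2 with -0.69. After the same subtraction Iars2 was still called on day 4 (-0.35, edgeR adjusted p = 0.00581) and Mars2 was not (-0.56, 0.0658). The median difference of the mitochondrial synthetases on day 4 was 0.03, beside 0.17 for the 14 synthetases of the program. Among members with a C/EBP-ATF core in the promoter window, 6 of 11 were called higher on day 2 and 5 of 11 on day 4, with 2 lower on day 4; of the 33 others 11 and 16 were higher, and 1 was lower on day 4. The medians with and without a core were 0.268 and 0.244 on day 2, and 0.69 and 0.21 on day 4. The day 4 median with a core is the value of Aars1, whose day 3 rank helped to select the program. Above it lies Pycr1 (1.33), which was near the count floor. The difference between these medians was not tested.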

How the data were processed

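RNA of the 32 BMDM cultures was sequenced on a NovaSeq, and per the study's methods reads were demultiplexed with JE, checked with FastQC, quantified with Salmon against GRCm39 and summed per gene with tximport. What the authors deposited is a table with an estimated count for each gene and library, in whole numbers. They were used as counts by the edgeR and DESeq2 fits, without the transcript length offsets of tximport, which were not used here. The strand setting and the annotation release are not given in the sources used here. The submitters' processing notes name DESeq2 1.32 and FastQC 11.9.

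Of 54281 identifiers 51048 matched GENCODE M39, and those without a match held 0.3202% of counts. A second identifier of Ddit3, at 0 counts, was dropped. All libraries entered 1 edgeR 4.0.16 fit (R 4.3.3) with 16 group means and TMM factors, after a filter with a minimum count of 10 that left 15257 genes (residual degrees of freedom 16, biological coefficient of variation 0.0912). The quasi-likelihood test was adjusted with the Benjamini-Hochberg method over all genes and called at an adjusted p under 0.01, the study's threshold, to which it adds a log2 fold change beyond 1.5. All p-values are two-sided. Replicate numbers follow the order of the samples and only name a library. Comparisons on a day share libraries, and each fold change refers to the first group named over the second.

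In tests on simulated data for the day 4 genotype difference, with 14228 genes fitted, 25 of 67 genes changed by 0.5 on the log2 scale were recovered, 65 of 67 changed by 1 and 66 of 66 changed by 2, and 1 unchanged gene was called. A small difference that was not called may therefore have been missed.

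The members and lists were chosen with earlier results of these data known. All 44 members are accounted for. Per-library values are given for Asns, Aars1 and Mthfd2 and, in each role group, for the 3 members with the smallest p on day 4 and the 2 with the smallest on day 2, and other lists by counts with their 2 members of smallest p on day 4. Since genes were picked by a small p, libraries that do not overlap add no support to the test. The share of all genes without overlap was not counted. A result on the cytosolic synthetases outside the program is not reported here. The other lists are proliferation markers, interferon-stimulated genes, eIF2 kinases and regulators, other ATF4 targets, cytosolic and mitochondrial synthetases outside the program, cytosolic folate enzymes, endoplasmic reticulum chaperones and cell type markers. Alternatives were DESeq2 1.42.0, RLE factors, no minimum count, an adjusted p under 0.05, a fit of the compared libraries alone, leaving out each library, and untreated cells as control or subtracted.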

Additional observations from a re-analysis of the deposited data

Results flagged for a closer look

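The genotype difference changed between day 2 and day 4 for 6 members, by a test of the difference of differences (edgeR, adjusted over all genes). On the log2 scale it grew by 1.369 for Trib3 (standard error 0.287, adjusted p = 0.00358), by 1.34 for Phgdh (0.222, 0.000466), by 0.8312 for Asns (0.135, 0.00017), by 0.7387 for Nupr1 (0.147, 0.00158) and by 0.6389 for Mthfd2 (0.128, 0.00175), and it shifted by -1.044 for Mthfd1l (0.167, 0.00012). For Asns, Phgdh, Mthfd2 and Trib3 the level was lower on day 4 than on day 2 in induced cells of both genotypes. The fall was by a larger factor in WT/FL cells. The proliferation markers fell over the same days. Their part in these changes was not tested.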

How the results depend on the processing

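No paired analysis was possible because the labels number no replicates and tie no library to one of another group, and the order of the samples was not read as pairing. The number of members whose genotype difference changed from day 2 to day 4, 6 in the reported fit, was 10 without a minimum count (7 upward, 3 downward), 10 with DESeq2 and 13 at an adjusted p under 0.05. Between untreated genotypes 1 member was called without a minimum count in place of 0. The causes were not tested. With 1 library left out, 11 to 16 members were called on day 2 in place of 17, 15 to 18 for 4-OHT against untreated FL/FL cells on day 2 in place of 25, and 3 to 6 for the change between days in place of 6; a group then held 1 library, assumed to vary like the others. With the difference between untreated genotypes subtracted, 9 members were called on day 2 in place of 17. Under the alternatives run, the other counts of members stayed within 1.5 times the reported one.

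Some values that were not called changed sign on day 2. With untreated FL/FL cells as the control, Mthfd1l was at -0.05366, Slc7a11 at 0.002402 and Stc2 at 1.05, and with untreated cells subtracted Mthfd1l was at -0.07351, Vldlr at 0.02531 and Stc2 at 0.7127. With 1 library left out, Vldlr ranged from -0.3938 to 0.1046, Mthfd1l from -0.03267 to 0.1034 and Stc2 from -1.382 to 0.2964 on day 2, and Stc2 from -4.196 to 0.903 on day 4. Stc2, Pycr1 and Cth, at few counts on days 3 and 4, are limited by depth. RLE factors moved the median over all genes on day 4 from -0.0366 to -0.0217.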

Other observations

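Genes of 2 neighbouring pathways were counted in the genotype difference of induced cells. For comparison, 5.69% of all genes were called higher and 2.48% lower on day 2, and 9.84% and 11.7% on day 4. Of 10 chaperones and folding factors of the endoplasmic reticulum, which the unfolded protein response controls, 2 were higher on day 2, and 1 was higher and 4 lower on day 4. Hspa5, the chaperone BiP, was higher by 0.37 on day 4 (edgeR, adjusted p = 1.69e-06), whereas Dnajc3, an inhibitor of eIF2 kinases, differed by -0.39 (adjusted p = 8.01e-06).

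Of 5 cytosolic folate enzymes edgeR called 0 on day 2, with 2 at an unadjusted p under 0.05, and 1 was higher and 3 lower on day 4. Shmt1, the cytosolic counterpart of Shmt2, differed by -1.22 on day 4 (adjusted p = 4.21e-05) and Mthfd1, which carries one-carbon units in the cytosol, by -0.48 (adjusted p = 4.41e-05). Of the mitochondrial enzymes among the members, Mthfd2 was higher on the same day, Mthfd1l was lower (-1.01) and Shmt2 was not called (-0.09). All 8 proliferation markers were lower on that day, and their part in these differences was not tested.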
